A study of Arabidopsis thaliana with 26 samples.

Results

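The genes of flavonoid synthesis were followed across 10 groups of Arabidopsis root samples. They are 8 named loci: TT4 (AT5G13930), TT5 (AT3G55120), F3H (AT3G51240), TT7 (AT5G07990), FLS1 (AT5G08640), DFR (AT5G42800), LDOX (AT4G22880) and the regulator MYB111 (AT5G49330). Of these 8, 7 have a row among the 16255 loci of the deposited table, each with 1 probe set, and LDOX was not analysed here. The set was selected on measured values, the higher signals of TT4, F3H and FLS1 in the jkd mutant meristem than in wild type, so that comparison is given as a description and carries no test.

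Flavonoids are made from phenylalanine by way of the general phenylpropanoid pathway. Chalcone synthase (TT4) condenses coumaroyl-CoA with malonyl-CoA, chalcone isomerase (TT5) closes the ring, and F3H and the flavonoid 3'-hydroxylase TT7 hydroxylate the product. FLS1 then turns dihydroflavonols into flavonols, while DFR leads towards anthocyanins and proanthocyanidins, and MYB111, MYB12 and MYB11 are activators of the flavonol branch. In roots, flavonols are known as modulators of auxin transport.

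The study measured RNA on 26 microarrays, and the authors deposited 1 MAS5 signal (a linear intensity) per probe set and array. In the time series, seedlings carrying GFP under the SCR promoter were moved at 2 days after germination to medium with 1 µM 2,4-D, a synthetic auxin. Root tips of 250 µm were cut and protoplasted, and GFP-positive cells were sorted before treatment (0 h, 3 arrays) and after 24, 48, 72 and 96 h (2 arrays each). The SCR promoter is active in the endodermis and the quiescent centre (QC), the slowly dividing cells at the centre of the root stem cell niche, and the sort may contain either.

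The other samples were taken at 3 days after germination. QC cells sorted for GFP under the WOX5 promoter were profiled in jkd plants (jkd-4 in the titles), in wild type Col-0 plants grown alongside them, and in another wild type collection, called the separate harvest (3 arrays each). Excised meristems came from jkd and from wild type plants (3 arrays each), without an allele or line in their labels. JKD is a zinc finger regulator needed for ground tissue patterning. Its own signal lay between 1.37 and 24.86 in jkd QC cells, against 68.67 to 108.67 in wild type QC cells grown with them, and between 6.23 and 13.35 in jkd meristems, against 173 to 201 in wild type meristems. Separate plants behind the arrays of a group are not stated in the labels, so p-values cover the array-to-array spread alone, and that spread may be technical. In such bulk RNA, fewer cells of a type and less RNA per cell cannot be told apart.

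Arrays were scaled to a like level, with trimmed mean signals of 250.9 to 256.9 and median signals of 57.45 to 102.6. The mean log2 signal of plastid-encoded genes differed among the 0 h arrays, at 10.01 in replicate 5, against 7.08 in replicate 1 and 7.67 in replicate 3. It was 8.99 to 10.02 over the 8 treated arrays, 9.23 to 10.30 over the 9 QC arrays and 7.11 to 7.35 over the 6 meristem arrays, so replicates 1 and 3 were the low ones among sorted cells. Results that rest on replicate 5 are given with and without it. Among the QC markers, WOX5 and PLT2 were not analysed here. The 6 that were (PLT1, BBM, TEL1, AGL42, ERF115 and MYB56) summed to signals of 921.6 to 2227 over the 9 QC arrays, against 444 to 551 over the 6 meristem arrays. At a limma adjusted p under 0.05, 5 of the 6 were higher and 1 was lower in the separate harvest than in wild type meristems. Of all tested probe sets, 58.3% differed there. In jkd, 4 of the 6 were higher and 0 lower in QC cells than in meristems, where 47% of all tested probe sets differed.

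**Figure D1:**
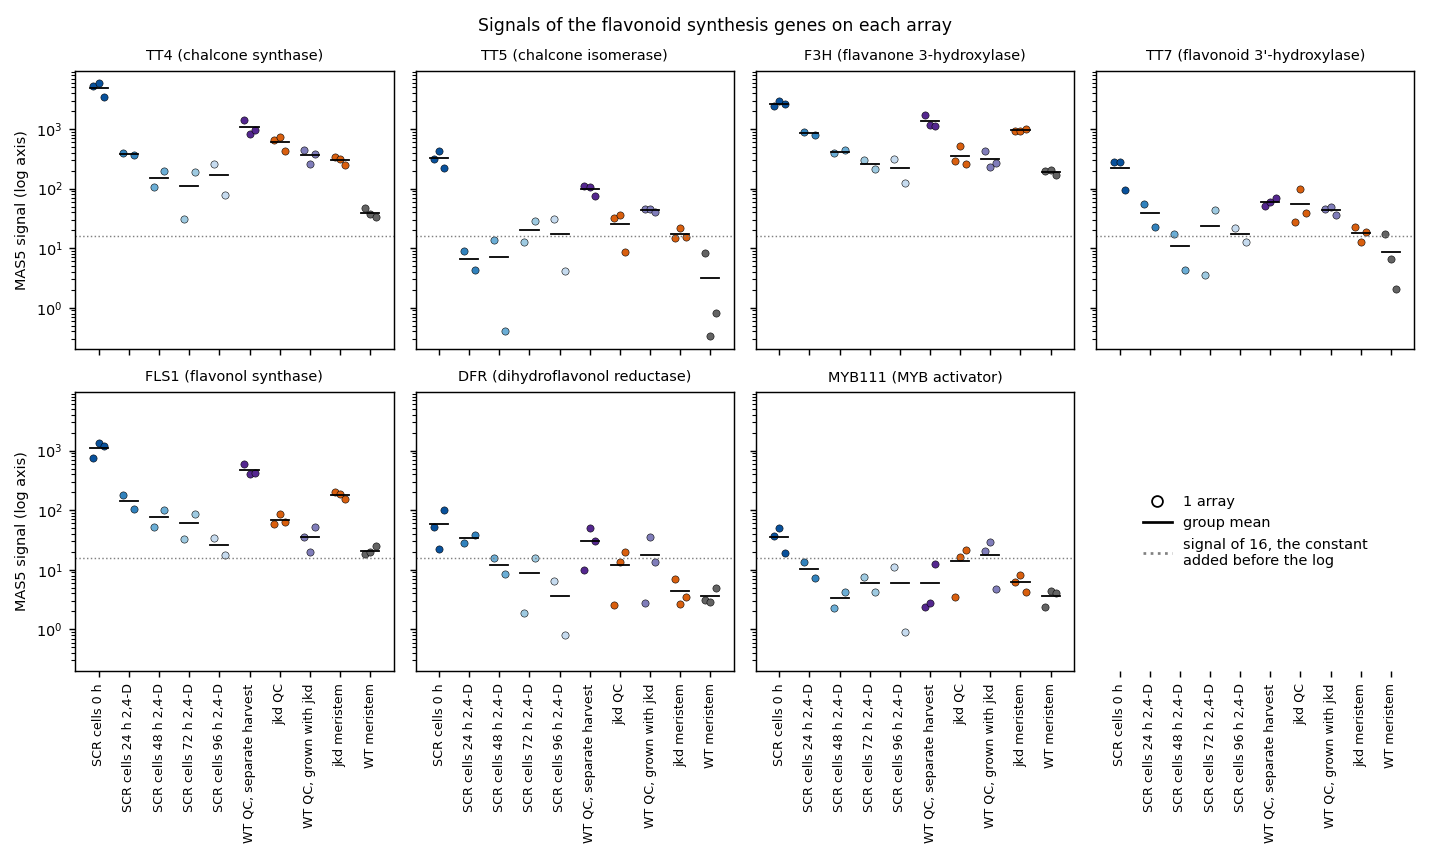
MAS5 signal (log axis) of the 7 flavonoid synthesis genes on each of the 26 arrays, by group; points are arrays, horizontal bars are group means, and the dotted line marks a signal of 16, the constant added before the log. TT4 has its highest mean (4864) in SCR-promoter cells at 0 h and its lowest (39.1) in the wild type meristem, while DFR and MYB111 stay near or below the dotted line in most groups.

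The first enzymes of the pathway had their highest signals in untreated SCR-promoter cells. TT4 measured 5307, 5855 and 3430.3 at 0 h. Its mean was 4864 ± 1272 (SD, n = 3), and the next group, the separate QC harvest, stood at 1435, 827 and 959.9. Every 0 h array was above every array of that harvest. The order of the group means then ran through jkd QC (599), SCR cells at 24 h (378), wild type QC grown with jkd (361), jkd meristem (301), SCR cells at 96 h (168), 48 h (149.7) and 72 h (111), and ended with the wild type meristem (39.1). From the 24 h cells down to the wild type meristem, each group's range overlapped that of the next, so 6 of the 9 steps in this order lie within the spread of the arrays.

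F3H followed another order below the same first pair of groups. It measured 2389, 2957 and 2645 at 0 h and 1694.5, 1179.7 and 1145 in the separate QC harvest. Next in order was the jkd meristem, with a mean of 946 ± 43.1 (SD, n = 3), above every array of SCR cells at 24 h (902 and 798), of jkd QC (291, 527 and 256) and of wild type QC grown with jkd (429.7, 234 and 273). The wild type meristem had the lowest mean, with arrays at 194, 203 and 172. Of the 9 steps, 5 lay within the spread, all of them from the 48 h cells downwards.

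FLS1, the flavonol synthase, ran in nearly the same order as F3H. Its signals were 744, 1317 and 1214 at 0 h, 593, 397 and 424 in the separate QC harvest, and 205, 183 and 156 in the jkd meristem, against 18.34, 19.87 and 24.73 in the wild type meristem. Over the 26 arrays, the log2 signals of F3H and FLS1 correlated at r = 0.953, and at r = 0.954 over the 15 arrays outside the time series. TT4 correlated with F3H at 0.835 and with FLS1 at 0.861 over the 26 arrays. These values are descriptions: the arrays share groups, labelling and scaling.

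TT5 and TT7 were highest at 0 h too, and low elsewhere. TT5 measured 318.5, 434.8 and 218.6 at 0 h and 110.8, 106.5 and 74 in the separate QC harvest, and no array of another group passed 46.2. TT7 measured 279.3, 278.6 and 95.3 at 0 h, where replicate 5 was the low one, and no array of another group passed 97.34. Neighbouring groups overlapped in 6 of 9 steps for TT5 and in 8 of 9 for TT7.

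DFR and MYB111 were weak on these arrays. DFR measured 51.3, 22.4 and 99.7 (replicates 1, 3 and 5) at 0 h, with a mean of 57.8 ± 39.1 (SD, n = 3), and its means in the 2 meristem groups were 4.37 in jkd and 3.66 in wild type. MYB111 measured 36.7, 51.2 and 18.8 at 0 h, and its means elsewhere lay between 3.30 and 18.02. For both genes, every step in the order of groups lay within the spread of the arrays. Neither passed the filter on low signals (a mean log2 signal at or above the 30th percentile) in any comparison with all arrays, so they were not tested.

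After 24 h of 2,4-D, all 5 of the tested flavonoid enzyme genes had fallen below their 0 h level. TT4 fell to 391 and 364 at 24 h, against 5307, 5855 and 3430.3 at 0 h, a change of -3.60 ± 0.61 on the log2 scale (standard error, n = 2 against 3, limma adjusted p = 0.000755). No treated array reached the lowest 0 h array. TT5 fell further, to 9 and 4.3, a change of -3.87 ± 0.46 (adjusted p = 2.54e-05), and the size of a change down to signals this low depends on the added constant. FLS1 fell to 181 and 104 (-2.81 ± 0.42, adjusted p = 0.00014). F3H fell least, to 902 and 798 (-1.63 ± 0.35, adjusted p = 0.00187). TT7 fell to 54.8 and 23 (-2.02 ± 0.55, adjusted p = 0.00864), but it lost the call without replicate 3 at 24 h (-1.59, adjusted p = 0.0999) and with an added constant of 1 in place of 16 (-2.42, adjusted p = 0.0552). Of all 11469 probe sets tested at 24 h, 27.5% were called lower at an adjusted p under 0.05. Over all tested probe sets the median difference was -0.21, against -2.02 for the 7 flavonoid genes. The filter on low signals used the mean of all 11 SCR-promoter arrays. TT5 and TT7 had treated group means of 6.65 to 20.35 and 10.9 to 38.9, and passed it only through their 0 h arrays. A gene that passes in this way can hardly be called higher, so the count of 5 at each time is partly set by the filter. No untreated cells were profiled after 0 h, so auxin and greater seedling age cannot be told apart.

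The same 5 genes were below 0 h at every later time. At 48 h, TT4 measured 106 and 194, F3H 388 and 439, FLS1 51.8 and 101, TT5 13.8 and 0.4, and TT7 17.5 and 4.3. At 72 h, 1 array had TT4 at 31.3 and the other at 191, the largest SD of this gene within a group on the log2 scale (1.51). At 96 h, TT4 stood at 258 and 77, F3H at 317 and 125, and FLS1 at 34.2 and 17.8. The changes from 0 h to 96 h were -4.90 ± 0.61 for TT4 (adjusted p = 7.78e-05), -4.71 ± 0.42 for FLS1 (adjusted p = 2.04e-06), -3.62 ± 0.35 for F3H (adjusted p = 3.51e-06), -3.43 ± 0.46 for TT5 (adjusted p = 4.42e-05) and -2.69 ± 0.55 for TT7 (adjusted p = 0.00126). All 5 tested genes were called lower at 48 h, 72 h and 96 h, where 27.2%, 26.4% and 27.7% of all tested probe sets were called lower. The 4 comparisons share the 0 h arrays. Without replicate 5 at 0 h, the 5 genes remained called lower at all 4 times, with changes from -1.63 (F3H at 24 h) to -5.82 (TT4 at 72 h).

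DFR, not tested, averaged 57.8 before treatment, and its means after 24, 48, 72 and 96 h were 33.7, 12.1, 8.95 and 3.60. From 48 h on, both arrays of each time were below all 3 arrays at 0 h. MYB111 had a mean of 35.6 at 0 h and means of 3.30 to 10.4 at the treated times.

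**Figure D2:**
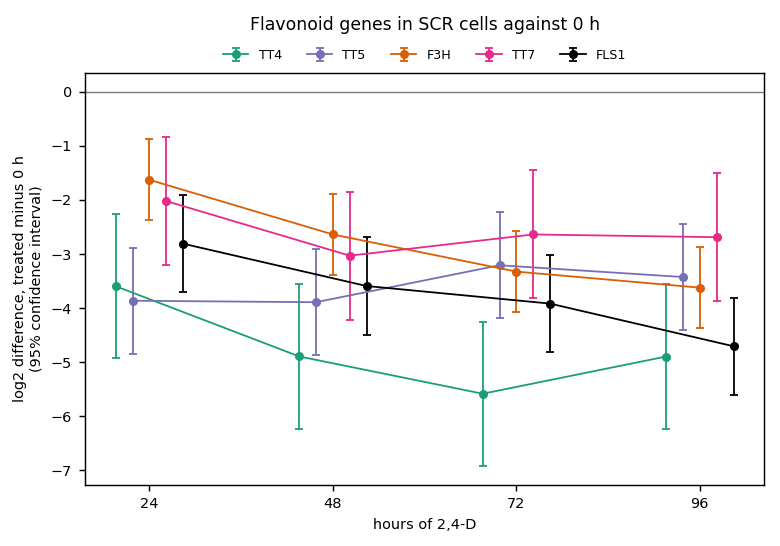
Change of the 5 tested flavonoid genes in SCR-promoter cells, as the log2 difference of signal + 16 from 0 h (y axis) against hours of 2,4-D (x axis); points are limma estimates and bars 95% confidence intervals, from 2 treated arrays a time against 3 at 0 h. All 20 intervals lie below 0, and F3H runs from -1.63 at 24 h to -3.62 at 96 h while TT5 starts at -3.87 and ends at -3.43.

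Between 24 h and 96 h, F3H and FLS1 went on falling. F3H differed by -1.996 ± 0.38 (n = 2 each, limma adjusted p = 0.0111) and FLS1 by -1.90 ± 0.46 (adjusted p = 0.0349). Of all tested probe sets, 1.89% were called lower in this comparison and 1.97% higher. TT4 differed by -1.30 ± 0.66 (adjusted p = 0.371), TT7 by -0.67 ± 0.60 (adjusted p = 0.663) and TT5 by 0.44 ± 0.50 (adjusted p = 0.750), which passed no threshold. The calls of F3H and FLS1 depended on single arrays. Neither passed without replicate 2 at 24 h (adjusted p = 0.148 for F3H and 0.368 for FLS1) or without replicate 3 at 96 h (0.108 and 0.219). FLS1 also missed the threshold without replicate 3 at 24 h (0.0564) and without replicate 2 at 96 h (0.0927).

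The steps before chalcone synthase fell as well. All 6 phenylpropanoid entry genes on the table, which are 3 phenylalanine ammonia-lyases and 3 4-coumarate:CoA ligases, were called lower than at 0 h at each of the 4 times. The calls of 4CL1 and 4CL2 held at every time in all 21 fits run. At 48 h the others were less stable: PAL2 passed in 14 of 21 fits (adjusted p up to 0.334), PAL3 in 14 of 20 (0.327), PAL4 in 16 of 21 (0.271) and 4CL5 in 20 of 21 (0.125). PAL3 also passed in only 17 of 20 fits at 24 h (up to 0.193) and 15 of 20 at 96 h (0.249), and PAL4 in 19 of 21 at 24 h (0.197) and at 72 h (0.175). 4CL1 measured 122 to 204 at 24 h and 5.5 to 30.7 at 96 h, against 726 to 1792 at 0 h (-2.83 ± 0.42, adjusted p = 0.000132, at 24 h and -5.29 ± 0.42, adjusted p = 7.83e-07, at 96 h). Among the genes that attach sugars or methyl groups to flavonoids, all 4 tested were called lower at 24 h. Of these, UGT78D2, OMT1 and UGT79B1 lost the call without replicate 3 at 24 h (adjusted p = 0.0887, 0.110 and 0.0573). The other was UGT89C1, a flavonol rhamnosyltransferase, which measured 182 and 183 at 24 h and 59.6 and 20.6 at 96 h, against 1194 to 1521 at 0 h. UGT89C1 changed by -2.83 ± 0.35 at 24 h (adjusted p = 3.37e-05) and by -4.75 ± 0.35 at 96 h (adjusted p = 4.32e-07). TT12, a transporter of flavonoids into the vacuole of seed coat cells, fell by 1.72 ± 0.36 at 24 h (adjusted p = 0.00171). CHIL, a chalcone isomerase-like protein that assists chalcone synthase, fell by 1.84 ± 0.33 (adjusted p = 0.000581). Treated group means were 8.15 to 18.4 for PAL3, 8.45 to 14.7 for UGT79B1 and 3.15 to 27.05 for TT12. These genes passed the filter on low signals only through their 0 h arrays, so their calls as lower are partly set by the filter.

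Of all 40 pathway genes outside the 7, 24 were tested in the time series. At 24 h, 17 were lower and 1 higher. At 48 h, 16 were lower and 1 higher, at 72 h 18 lower and 2 higher, and at 96 h 18 lower and 3 higher. Some of those lower, among them PAL3, UGT79B1 and TT12, passed the filter only through their 0 h arrays. Among all probe sets, those called higher made up 20.7%, 21.8%, 23% and 24.7% from the earliest to the latest of these times. Between 24 h and 96 h, 5 were lower and 1 higher.

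The regulators did not move as 1 group. MYB12, the other main flavonol activator, measured 249 to 882 at 0 h and 278 to 469 at 24 h, where its change did not pass, and fell to 122 and 50.7 at 96 h (-2.40 ± 0.48, adjusted p = 0.00117). HY5, a light-signalling bZIP factor known to activate MYB12 and chalcone synthase in shoots, went the other way. It rose to 1078 and 1134 at 24 h, against 89.8 to 137 at 0 h (3.08 ± 0.33, adjusted p = 1.09e-05), and stayed higher at 96 h (2.70 ± 0.33, adjusted p = 2.09e-05). Its relative HYH was higher at 96 h (2.34 ± 0.41, adjusted p = 0.000386). MYB4, a repressor of phenylpropanoid genes, was lower at 96 h (-3.78 ± 0.49, adjusted p = 4.25e-05). LBD39 and LBD37, nitrate-responsive repressors of anthocyanin synthesis, were lower at 24 h, by -2.38 ± 0.39 (adjusted p = 0.000309) and -1.65 ± 0.40 (adjusted p = 0.00436), although LBD37 missed the threshold without replicate 3 at 24 h (0.0795). MYB32 was lower at 24 h (-1.09 ± 0.32, adjusted p = 0.0116) and higher at 96 h (1.04 ± 0.32, adjusted p = 0.0137), calls lost without replicate 2 at 24 h (0.106) and without replicate 2 at 96 h (0.140). TTG1, a WD40 protein of the anthocyanin regulatory complex, had an adjusted p of 0.695 at 24 h and 0.350 at 96 h. MYB11, TT8 and MYB75 did not pass the filter on low signals.

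Markers of several cell types moved over the same times. Those of the endodermis were lower. The 7 markers on the table (SCR, MYB36, CASP2, CASP4, CASP5, PER64 and SGN3) summed to signals of 3652 to 4234 at 24 h and 1115 to 1639.6 at 96 h, against 14479 to 24484 at 0 h. At 24 h 4 of 7 and at 96 h 5 of 7 were called lower, and at 96 h 2 had mean signals under 16. SCR, whose promoter marked the sorted cells, measured 522 to 1310.1 over the 8 treated arrays, against 383 to 778 at 0 h. QC markers summed to 2530.0 to 3820.4 at 96 h, against 268.5 to 416 at 0 h, and 4 of the 5 tested were higher. Vascular markers summed to 344.5 to 442 at 24 h and 452 to 552 at 96 h, against 96.5 to 129 at 0 h, with 3 of 3 tested higher at both times. The stress and protoplasting genes summed to 28041.5 to 28851 at 24 h and 20923 to 22796 at 96 h, against 16992 to 19401 at 0 h. Of these 6, 3 were higher and 1 lower at 24 h, and 1 was higher and 2 lower at 96 h. Epidermis markers summed to 52.0 to 55.3 at 48 h, against 233 to 1195 at 0 h, with 1 of 2 tested lower. Plastid signal also differed between the treated arrays and 0 h replicates 1 and 3. Replicate 5, a single array, had a plastid level like that of the treated arrays. In it TT4, TT5, F3H, TT7 and FLS1 were each above all 8 treated arrays, but the share of all probe sets for which this held was not counted. The part of the marker changes and of plastid signal in the fall of the flavonoid genes was not tested.

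Untreated SCR-promoter cells were next set beside the separate QC harvest. All 5 tested flavonoid genes were higher at 0 h than in QC cells, where 25.5% of all tested probe sets were. The differences were 2.17 ± 0.51 for TT4 (n = 3 each, limma adjusted p = 0.00345), 1.55 ± 0.38 for TT5 (adjusted p = 0.00302), 1.49 ± 0.45 for TT7 (adjusted p = 0.0119), 1.16 ± 0.35 for FLS1 (adjusted p = 0.0106) and 1.00 ± 0.29 for F3H (adjusted p = 0.00908). Only TT7 lost its call when single arrays were left out, without replicate 1 (adjusted p = 0.0548) or replicate 3 (adjusted p = 0.0539) at 0 h. Without replicate 5 all 5 calls were kept, and the difference of TT7 was 1.96. The same comparison differed in age (2 against 3 days) and in the promoter used for sorting, and several marker lists stood apart. The endodermis markers summed to 14479 to 24484 at 0 h, against 2469 to 3497 in the QC harvest. Root cap markers summed to 212 to 544.5 at 0 h, against 1112 to 1286, epidermis markers to 233 to 1195, against 2074 to 2205, and stress and protoplasting genes to 16992 to 19401, against 27474 to 33842. Within the lists, 5 of 7 endodermis markers were called higher and 3 of 5 epidermis markers lower. Of 4 root cap markers, 3 were lower and 1 higher, and of 6 stress and protoplasting genes, 3 were lower and 2 higher. The part of these lists in the flavonoid differences was not tested. Of the 22 tested pathway genes outside the 7, 6 were higher and 6 lower, where 25.7% of all probe sets were lower. PAL2 was higher by 1.05 ± 0.28 (adjusted p = 0.00568), while CHIL was lower (-0.91 ± 0.28, adjusted p = 0.0135), a call lost without replicate 1 at 0 h (0.0574) or replicate 1 of the QC harvest (0.0839).

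Treated cells crossed below the QC harvest in the same genes. At 24 h, 2 of the 5 tested were lower than in QC cells, TT5 (-2.31 ± 0.43, adjusted p = 0.000662) and FLS1 (-1.64 ± 0.39, adjusted p = 0.00416), where 19.3% of all probe sets were lower. FLS1 lost this call without replicate 3 at 24 h (adjusted p = 0.0718). At 48 h all 5 were lower (background 17.7%), including TT7 at -1.54 ± 0.51 (adjusted p = 0.0298), a call lost on leaving out either array at 48 h or any array of the QC harvest (adjusted p from 0.0543 to 0.234). At 72 h (14.2%) and 96 h (16.5%) the 4 genes other than TT7 were lower, and without replicate 5 at 0 h all 5 were at both times. TT5 lost its call without replicate 2 at 72 h (adjusted p = 0.127) and, at 96 h, without replicate 3 at 96 h (adjusted p = 0.0799). By 96 h FLS1 differed from the QC cells by -3.54 ± 0.39 (adjusted p = 5.35e-06), TT4 by -2.73 ± 0.57 (adjusted p = 0.00311) and F3H by -2.62 ± 0.33 (adjusted p = 1.79e-05). These comparisons share the arrays of the QC harvest. Their filter on low signals used the mean of the 11 SCR-promoter arrays and the 3 arrays of that harvest. With treated group means of 6.65 to 20.35 and 10.9 to 38.9, TT5 and TT7 passed it only through the 0 h and QC arrays. They could hardly be called higher than in QC cells, so these counts are partly set by the filter.

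In the meristem of jkd plants, the 3 genes that led to the choice of the set stood well above wild type. TT4 measured 334, 319 and 251 in jkd meristems, against 47.35, 37.02 and 32.93 in wild type meristems. F3H measured 934, 911 and 994 in jkd and 194, 203 and 172 in wild type. FLS1 measured 205, 183 and 156 in jkd and 18.34, 19.87 and 24.73 in wild type. The jkd and wild type arrays of these 3 did not overlap, but the genes were chosen on this difference. The share of all probe sets without overlap was not counted for the meristems. The log2 differences were 2.53 ± 0.20 for TT4, 2.23 ± 0.17 for F3H and 2.41 ± 0.19 for FLS1 (standard errors, n = 3 each), given without a test because the rule used this comparison. Of 11469 tested probe sets, 0.776% were called higher and 0.933% in either direction.

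The other 4 genes were near background in both meristems and did not pass the filter there. TT5 measured 14.61, 22.14 and 15.6 in jkd meristems, against 8.28, 0.33 and 0.83 in wild type. TT7 measured 22.48, 12.74 and 18.53 in jkd and 17.03, 6.66 and 2.07 in wild type, with overlap. DFR lay between 2.64 and 6.95 in jkd and between 2.92 and 4.89 in wild type. MYB111 lay between 4.25 and 8.18 in jkd and between 2.35 and 4.32 in wild type. The log2 differences were 0.82 for TT5, 0.50 for TT7, 0.18 for MYB111 and 0.05 for DFR, sizes that depend on the constant of 16 at such signals.

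Among the 21 tested pathway genes outside the 7, 3 were called higher in the jkd meristem and 0 lower, where 0.776% of all tested probe sets were higher. They were tested on the same arrays that chose the set, so these calls are no separate support for its rise. MYB12 measured 268, 199.5 and 195 in jkd meristems, against 35.11, 67.96 and 60.63 in wild type (1.77 ± 0.23, limma adjusted p = 0.00181), and it passed in all 16 fits run. CHIL measured 564, 403 and 323 in jkd, against 195, 181 and 176 in wild type (1.12 ± 0.21, adjusted p = 0.0209). UGT78D2, which glucosylates flavonols at the 3 position, measured 196, 157 and 156 in jkd, against 83.71, 65.75 and 67.75 in wild type (1.07 ± 0.19, adjusted p = 0.0161). Both lost their call without wild type replicate 2 (adjusted p = 0.0753 for CHIL and 0.0807 for UGT78D2), without wild type replicate 3 (0.107 and 0.104) and without jkd replicate 1 (0.105 and 0.0990), and CHIL also without jkd replicate 2 (0.0751) and with no filter on low signals (0.0692). In 1 fit of all 26 arrays, neither passed (0.632 for both). HY5 differed by 0.65 ± 0.17 (adjusted p = 0.128). None of the 5 tested phenylpropanoid entry genes passed.

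Of 5 tested endodermis markers, CASP5, a Casparian strip scaffold, was lower in the jkd meristem (-1.70 ± 0.24, adjusted p = 0.00252) and the other 4 did not pass. The 7 endodermis markers summed to 447 to 609 in jkd meristems, against 754.5 to 1029 in wild type, and 2 had mean signals under 16 in both. No marker of the root cap, the vascular tissue, the epidermis or the QC passed, with summed signals of 1107 to 1592 in jkd against 1219 to 1766 in wild type for the root cap. The part of a changed share of endodermis in the flavonoid signals was not tested.

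**Figure D3:**
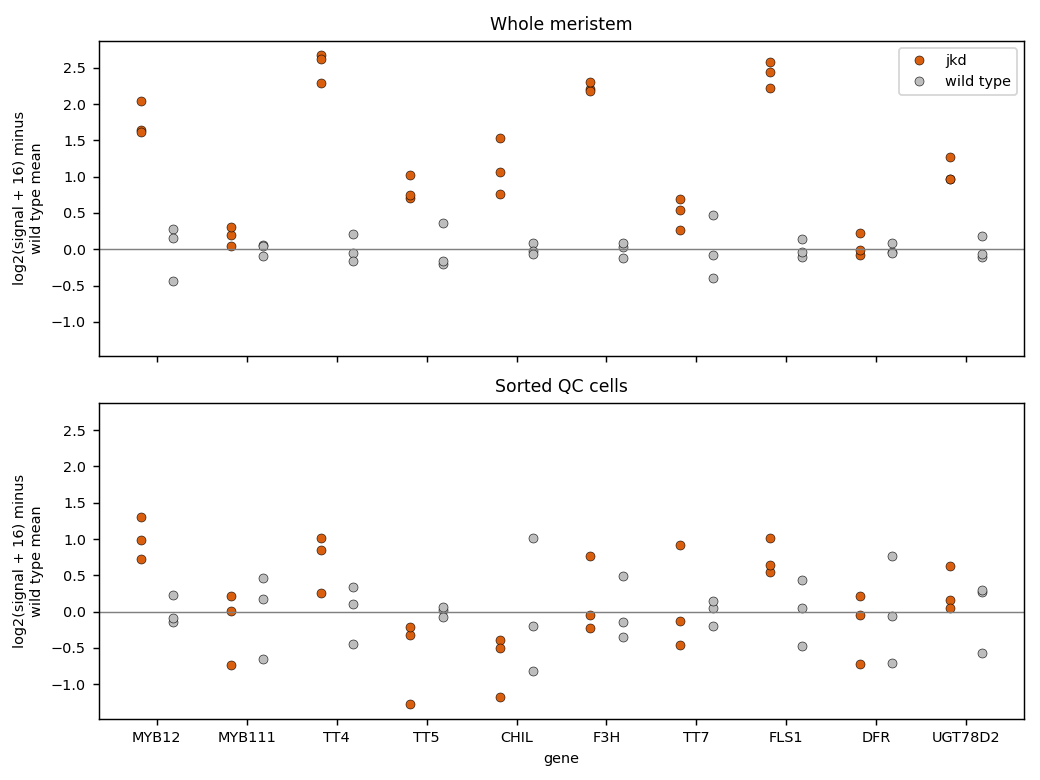
Log2(signal + 16) minus the wild type mean (y axis) for the flavonoid genes and 3 further pathway genes (x axis), with each jkd array (orange) left of the wild type arrays (grey), in whole meristems (top) and sorted QC cells (bottom). In the meristem the jkd arrays of TT4, F3H and FLS1 lie at differences around 2.53, 2.23 and 2.41, and in the QC the genotypes overlap for TT4, F3H and TT7.

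In sorted QC cells, none of the flavonoid genes passed between jkd and wild type. TT4 measured 646, 729 and 423 in jkd QC cells, against 449.7, 254 and 379 in wild type QC cells grown with them, with overlap (0.71 ± 0.36, n = 3 each, limma adjusted p = 0.587). The 95% interval of this difference ran from -0.06 to 1.48. FLS1 measured 57.65, 85.75 and 62.19 in jkd and 35.9, 20.08 and 51.96 in wild type, without overlap (0.73 ± 0.48, adjusted p = 0.683, interval from -0.28 to 1.75). F3H measured 291, 527 and 256 in jkd and 429.7, 234 and 273 in wild type (0.16 ± 0.40, adjusted p = 0.939, interval from -0.68 to 1.01). TT5 was lower in every jkd array (31.59, 35.71 and 8.69) than in any wild type array (44.57, 46.2 and 40.55), at -0.60 ± 0.51 (adjusted p = 0.766). TT7 measured 27.42, 97.34 and 38.69 in jkd and 46.01, 49.99 and 36.1 in wild type (0.11 ± 0.51, adjusted p = 0.974).

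Thus 0 of 5 tested flavonoid genes passed, where 0.105% of all probe sets did. At an unadjusted p under 0.05 the count was also 0 of 5, where 9.03% of all tested probe sets passed. Of the 7 genes, 2 (FLS1 and TT5) had ranges that did not overlap between the genotypes, as had 13.4% of all probe sets. MYB12 measured 109.5, 142 and 88.8 in jkd QC cells, against 58.43, 41.67 and 43.91 in wild type, again without overlap, and did not pass (1.00 ± 0.43, adjusted p = 0.492). None of the 25 tested pathway genes outside the 7 passed. Arrays of 1 group correlated at 0.908 to 0.946 in these QC cells, against 0.981 to 0.992 in the meristem groups, and the standard errors of TT4, F3H and FLS1 were 0.36, 0.40 and 0.48 in QC cells, against 0.20, 0.17 and 0.19 in meristems. Whether the jkd difference itself differs between the 2 tissues was not tested, because the meristem difference chose the genes. The endodermis markers summed to 399 to 549 in jkd QC cells and 1167 to 1657 in wild type QC cells, with none of 7 called.

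The wild type QC harvests differed from each other in 3 of the 5 tested flavonoid genes. FLS1 measured 35.9, 20.08 and 51.96 in wild type QC cells grown with jkd, against 593, 397 and 424 in the separate harvest (-3.25 ± 0.32, n = 3 each, limma adjusted p = 2.41e-05). F3H differed by -2.07 ± 0.27 (adjusted p = 0.000175) and TT4 by -1.53 ± 0.28 (adjusted p = 0.00176). TT5 differed by -0.90 ± 0.33 (adjusted p = 0.0637) and TT7 by -0.35 ± 0.35 (adjusted p = 0.516). The harvests did not overlap for 5 of the 7 genes, TT5 and TT7 among them. The share of all probe sets without overlap was not counted for this pair. Without replicate 2 of the wild type grown with jkd, TT5 passed as well (adjusted p = 0.0441). Of all tested probe sets, 13% were lower in the cells grown with jkd, among them TT4, F3H and FLS1.

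The same harvest difference reached across the pathway. All 5 tested phenylpropanoid entry genes were lower in the wild type QC cells grown with jkd, by 0.80 ± 0.27 (PAL4, adjusted p = 0.0483) to 2.69 ± 0.23 (4CL1, adjusted p = 1.12e-05) on the log2 scale, and MYB12 fell by 2.33 ± 0.30 (adjusted p = 0.000162). In all, 10 of 24 tested pathway genes outside the 7 were lower and 1, LBD37, was higher (1.38 ± 0.24, adjusted p = 0.00135), where 10.1% of all probe sets were higher. PAL4 lost its call under most settings, among them without replicate 1 or 3 of the cells grown with jkd or without any array of the separate harvest (adjusted p from 0.0673 to 0.219). Other lists moved with it. The 4 root cap markers summed to 331 to 551 in the cells grown with jkd, against 1112 to 1286 in the separate harvest, with 2 called lower and 1 higher. The 6 genes of stress and protoplasting summed to 41290.2 to 53393, against 27474 to 33842, with 3 called higher and 1 lower. The 7 endodermis markers summed to 1167 to 1657, against 2469 to 3497, with 4 of 7 lower. The separate harvest was deposited with 1 decimal and the other with 2, so processing and harvest cannot be told apart, and the part of these lists in the flavonoid signals was not tested.

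QC cells were last set against the meristem that surrounds them, again without a test of the 7 genes, since these comparisons share the meristem arrays of the rule. The separate QC harvest stood above the wild type meristem by 4.28 for TT4, 3.70 for FLS1, 2.70 for F3H, 2.57 for TT5, 1.67 for TT7, 1.12 for DFR and 0.13 for MYB111 on the log2 scale. No array overlapped for 6 of the 7, the exception being MYB111, and 53.4% of all probe sets had no overlap either. The size of these differences depended on the harvest. In the wild type QC cells grown with jkd, mean signals were 361 for TT4, 312 for F3H and 36.0 for FLS1, against 39.1, 190 and 21.0 in the wild type meristem, whereas the separate harvest had means of 1074, 1340 and 471. In that comparison 27% of all tested probe sets were called higher and 58.3% in either direction. In jkd, where 47% of all probe sets were called in either direction, the genes did not run 1 way. TT4 and TT7 were above the jkd meristem by 0.93 and 0.94, while F3H and FLS1 lay below it, at -1.43 and -1.23, with F3H at 291, 527 and 256 in jkd QC cells, against 934, 911 and 994 in jkd meristems. The wild type QC harvest and the jkd QC arrays are different harvests, so the 2 comparisons are values side by side. The stress and protoplasting genes summed to 27474 to 33842 in the separate QC harvest and 45304 to 49498 in jkd QC cells, against 11533 to 13871 in wild type and 11437 to 14203.5 in jkd meristems. QC cells were sorted and meristems excised, so cell type and sorting cannot be told apart in either comparison. The separate harvest was also deposited with 1 decimal and the wild type meristem with 2, so processing cannot be told apart there either.

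**Figure D4:**
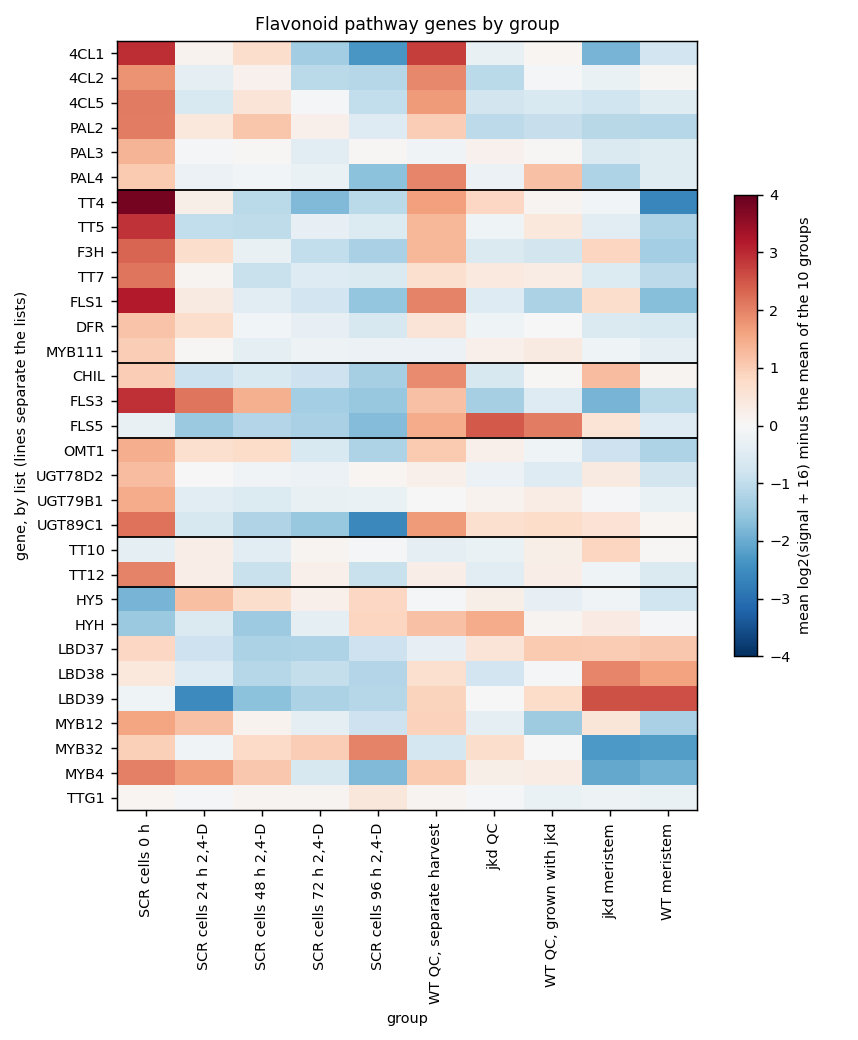
Mean log2(signal + 16) of each group minus the mean of the 10 groups (colour, blue low to red high) for the 7 flavonoid synthesis genes and the 24 further pathway genes tested in the time series (y axis, lines separate phenylpropanoid entry, the 7 genes, other core enzymes, decoration, transport and regulators) in the 10 groups (x axis). The 0 h column is red for the 7 genes and blue for HY5, and the jkd meristem column is redder than the wild type one for TT4, F3H, FLS1, CHIL and MYB12.

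Over all 26 arrays, the pattern of TT4 was most like that of SAHH2 (AT3G23810), an S-adenosylhomocysteine hydrolase, at r = 0.912 on the log2(signal + 16) scale, among 11468 other probe sets ranked. TT7 (0.894) and TT5 (0.881) came next, then UMAMIT30 (AT4G01450), a transporter of the UMAMIT family, at 0.876, and AT1G53560, which has no gene name in the RefSeq table, at 0.869. SAHH2 had a mean signal of 3058 at 0 h, between 88.15 and 164 in the treated cells, 1328 in the separate QC harvest, 241 in jkd QC, 219 in wild type QC grown with jkd, 135 in the jkd meristem and 66.1 in the wild type meristem. Outside the time series, over 15 arrays, its correlation with TT4 was 0.848. These are descriptions over arrays that share groups and processing.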

How the data were processed

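Per the submitters' processing notes, the authors made the deposited values, signal intensities on a linear scale, with MAS5. No source used here gives its settings, the detection calls or the array's genome build. Both deposited tables were checked and carry equal numbers. Symbols come from the RefSeq gene table (TAIR10.1). Tests used log2(deposited signal + 16), which understates changes of weak genes. For each comparison, only probe sets whose mean reached the 30th percentile entered the test, which was limma 3.58.1 under R 4.3.3 with the trend and robust options of eBayes. Adjusted p-values are Benjamini-Hochberg values, and calls needed one under 0.05. The 11 SCR-promoter arrays shared 1 fit, and comparisons of them with QC cells added the 3 arrays of the separate harvest. Other comparisons used their own 6 arrays. The script was tested on simulated data. Plots came from matplotlib 3.10.9 (Python 3.11.15). Genes named are the 7 members, pathway genes that passed (up to 4 largest per list and comparison), direct regulators, the 5 genes most like TT4, and JKD and SCR. A few further pathway genes are named, after their values were seen, because a call depended on 1 array. Members and lists were chosen with earlier results of these data known. Same-numbered arrays were not treated as pairs in the main fits. Correlations of their deviations ran from -0.114 to 0.042 between genotypes and from -0.039 to 0.173 between treated times. A replicate block was run as a further setting.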

Additional observations from a re-analysis of the deposited data

How the results depend on the processing

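Arrays numbered 2 or 3 a group limit every test, and signals near 16 have no reliable fold. The settings tried were an added constant of 1 or 64, no filter on low signals, quantile normalization, plain eBayes, 1 fit of all 26 arrays, array weights, the series value table, a replicate block and leaving out each array. The runs for pathway genes outside the 7 were added after seeing the data. Of 290 alternative values of the counts and medians of the flavonoid genes, 279 stayed near the reported ones. For counts this meant within 1.5 times, without regard to direction. For medians it meant the same sign and within 1 SD between replicates. The 290 include the series value table, whose equal numbers cannot give another result, and fits that left out an array of neither compared group. The numbers of fits given for single genes also include that table and the main fit.

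For 96 h over 24 h, 2 genes passed, against 1 with a constant of 64 and 1 with quantile normalization, and 0 to 2 on leaving out 1 array. For 0 h over the separate QC, 5 passed, against 3 with a constant of 1. The median difference of the 7 genes between jkd and wild type meristems was 0.82, against 2.31 with a constant of 1 and 0.28 with 64, and that between the separate QC and the wild type meristem was 2.57, against 1.26 with 64. The constant weighs most on weak signals. Leaving out 1 array gave 4 to 5 genes at 24 h, 5 to 6 at 48 h and at 72 h, and 5 at 96 h against 0 h. Against the separate QC it gave 4 to 5 genes at 0 h, 1 to 3 at 24 h, 4 to 5 at 48 h, 3 to 5 at 72 h and 3 to 5 at 96 h. It gave 0 for jkd over wild type QC and 3 to 4 between QC harvests, and medians of 0.72 to 1.01 (jkd over wild type meristem), 2.47 to 2.73 (separate QC over wild type meristem) and 0.21 to 0.66 (jkd QC over jkd meristem).

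Directions turned for values that had not passed. TT5 at 96 h over 24 h ranged from -0.16 without replicate 2 at 96 h to 1.04 without replicate 3. Between jkd and wild type QC, F3H ranged from -0.14 without jkd replicate 2 (-0.0078 without wild type replicate 2) to 0.41 without wild type replicate 1, and TT7 from -0.29 without jkd replicate 2 to 0.40 without jkd replicate 1. MYB12 at 24 h over the separate QC ranged from -0.12 without replicate 2 at 24 h to 0.61 without replicate 3. The cause was not tested.

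With the replicate block, 5 flavonoid genes passed at 96 h over the separate QC in place of 4, with TT7 added, and the other counts of flavonoid genes did not change. Over all probe sets, the block gave 935 calls in place of 443 at 96 h over 24 h, 41 in place of 12 for jkd over wild type QC, and 187 in place of 107 for jkd over wild type meristems. One fit of 26 arrays gave 707, 436 and 16 calls in these 3 comparisons, with 1 of 3 further pathway genes, MYB12, still higher in the jkd meristem. Array weights gave 53 and 190 calls for the jkd QC and meristem. Quantile normalization gave 250 at 96 h over 24 h, plain eBayes 2 and a constant of 1 gave 7 in jkd QC, no filter gave 60 in the jkd meristem, and leaving out 1 array gave 14 to 801, 2 to 10 and 50 to 82 calls.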
